A study of Homo sapiens with 6 samples.

Results

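OCI-LY10 is an established human line of diffuse large B-cell lymphoma, of the subtype called activated B cell-like (ABC), and its expression was described here in cells cultured with the solvent DMSO. The 3 arrays titled DMSO, 1 each at 4, 8 and 12 h, were used out of 6 in the study. The study set them as controls against pimasertib, an inhibitor of the MEK kinases, whose 3 arrays were not used, and no treatment was compared. All arrays carried RNA of 1 line grown in vitro, a field of the labels calls the DMSO cells not treated, and no label says that the 3 times came from separate cultures. The 3 values of a gene therefore differ by time, by culture where there was more than 1, and by technique at once, and these cannot be told apart. For each of 20046 genes with a named probe, the probe of highest median log2 intensity over the 3 arrays stood for the gene. A gene was called expressed when that probe lay above 6.70 on the log2 scale in all 3 arrays, a threshold 3 background SDs over the most frequent value of 6.49. It was called absent when none of its probes passed 6.70 in any of the 3 arrays, which means not above background and not that no RNA was made. All other genes were called intermittent. By this rule 8474 of 20046 genes were expressed (42.3%), 6268 were absent (31.3%) and 5304 were intermittent.

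Diffuse large B-cell lymphoma is divided by gene expression into an ABC subtype, which resembles B cells leaving the germinal centre for plasma cell differentiation, and a germinal centre B cell-like (GCB) subtype. ABC lymphomas are known for chronic signalling from the B cell receptor, where CD79A and CD79B pass the signal to the kinases LYN, SYK and BTK, and on through PLCG2, PRKCB, BCL10 and MALT1 to the transcription factor NF-kB. The adaptor MYD88 of the Toll-like receptors feeds the same factor, and secreted cytokines such as IL10 and IL6 act back through JAK kinases and STAT3. In bulk RNA, fewer expressing cells and less RNA per cell cannot be told apart.

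Gene lists of 5 kinds (B cell identity, signalling, apoptosis, cytokines and their receptors, and antigen presentation with costimulation) held 686 genes, of which 634 were measured. Of these, 356 were expressed (56.2%, against 42.3% of all genes), 154 were intermittent and 124 were absent (19.6%, against 31.3% of all genes). The kinds differed in these counts. Among distinct members, 94 of 131 B cell genes (71.8%), 152 of 221 signalling genes (68.8%), 42 of 60 apoptosis genes (70.0%), 25 of 44 antigen presentation and costimulation genes (56.8%) and 61 of 205 cytokine and receptor genes (29.8%) were expressed. Level ranks below are percentiles of a gene's median log2 intensity among the 20046 genes. Probes differ in brightness for the same amount of RNA, so a rank places a probe in the arrays' distribution and is no ratio between genes.

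**Figure D1:**
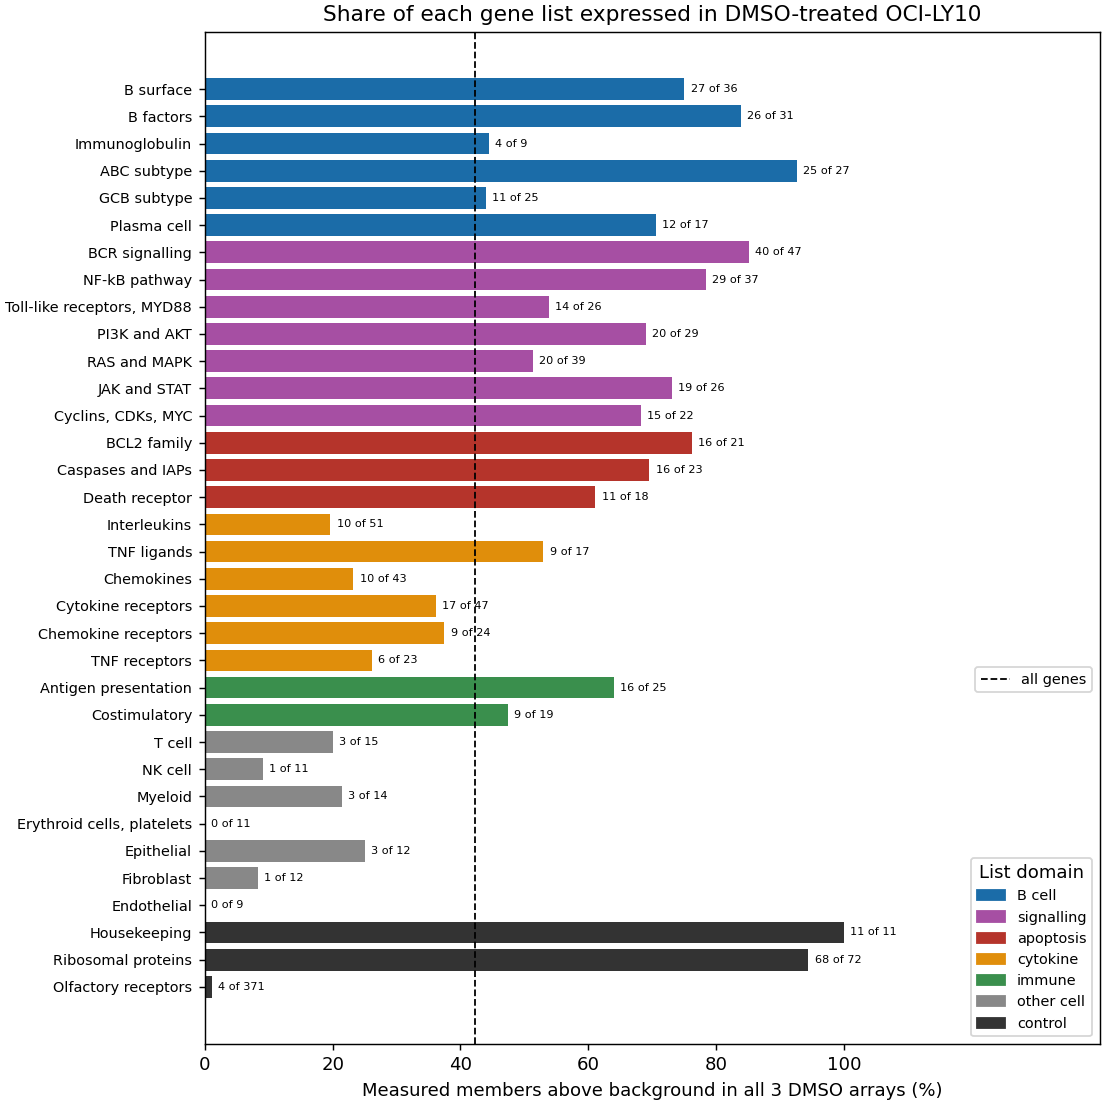
Share of the measured members of each gene list (percent, horizontal axis) whose probe lay above 6.70 log2 in all 3 DMSO arrays, with counts beside the bars, bars coloured by kind of list and the dashed line at the 42.3% of all 20046 genes. The ABC list stood at 25 of 27 and the GCB list at 11 of 25, and the lists of other cell types lay between 0 and 3 members each.

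Genes that B cells are known to use or to lack gave a scale for these calls. Of 72 cytosolic ribosomal protein genes, 68 were expressed, and all 11 housekeeping genes were. The ribosomal genes that missed the call were RPL10, RPL28, RPL10L and RPL3L. RPL10 had 6.79, 6.50 and 6.81 log2 and RPL28 had 7.31, 6.60 and 7.40 log2, both below 6.70 at 8 h only. Of 371 olfactory receptor genes, which lymphocytes are not known to use, 4 were expressed (1.08%), 83 were intermittent and 284 were absent. The 4 were OR11H1, OR51B4, OR52B6 and OR9A4, at medians of 6.92, 7.14, 6.89 and 7.08 log2. In single arrays 17, 50 and 37 olfactory receptors passed 6.70 at 4, 8 and 12 h (4.58%, 13.5% and 9.97%), so a call in 1 or 2 arrays carries more background than a call in all 3. Dropping the 4, 8 or 12 h array in turn gave 10, 8 and 9 expressed olfactory receptors. The 8 h array stood apart. Across the 8474 expressed genes the mean Pearson correlation of an array with the other pair was 0.932 at 4 h, 0.897 at 8 h and 0.917 at 12 h, a description over genes that are not independent. With the same probes and without the 8 h array, 9663 genes and 394 list members were expressed.

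The 6 genes taken as markers of the ABC line were all expressed. They were chosen with values of these arrays known, and CD79A, CD79B and CCND2 are used by other B cells too, so this is a description and no independent check of the subtype. CD79A and CD79B, the signalling chains of the B cell receptor, had 11.77, 11.32 and 11.82 log2 and 11.48, 11.13 and 11.55 log2 at 4, 8 and 12 h, and all 3 probes of each gene passed in all arrays. IRF4, the transcription factor of activated B cells and plasma cells, had 10.06, 10.24 and 9.98 log2. SPIB, an ETS factor that works with IRF4, had 11.80, 12.00 and 11.85 log2. For each of these 4 genes the 3 arrays lay within 0.50 log2 units of each other. CCND2, a D-type cyclin that drives entry into S phase, had 11.17, 11.83 and 12.07 log2, lowest at 4 h. PIM1, a serine/threonine kinase induced by STAT3 and NF-kB, had 10.12, 8.59 and 10.64 log2 and stood lowest at 8 h. Their level ranks ran from the 93.6th percentile for IRF4 to the 98.6th for SPIB.

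The 27 measured genes of the ABC list had a median rank at the 93.9th percentile, and 25 of them (92.6%) were expressed. The GCB list had 11 of 25 expressed (44.0%), near the 42.3% of all genes, and a median rank at the 52.7th percentile. Both lists were chosen with values of these arrays known, so the gap is a description. With the dimmest probe of each gene, 19 ABC genes and 5 GCB genes were expressed, so calls in both lists depend on the probe. Among ABC genes, BATF, an AP-1 factor of activated lymphocytes, had 11.27, 11.67 and 11.53 log2, CYB5R2, a reductase used in subtype signatures, had 10.93, 11.78 and 11.30 log2, and TNFRSF13B, the receptor TACI, had 10.90, 10.61 and 11.25 log2. PIM2, a kinase related to PIM1, had 9.68, 10.35 and 10.72 log2 and STAT3 had 10.05, 9.77 and 10.05 log2, with 3 of 3 STAT3 probes above background. The ABC genes that were absent were LIMD1 and BCL2L10. On the GCB side the absent genes included MME, the surface peptidase CD10, with 4 probes and values of 6.56, 6.52 and 6.49 log2 for the brightest. SERPINA9, a serpin of germinal centre cells, had 6.55, 6.63 and 6.48 log2, GCSAM, a germinal centre adaptor, had 6.54, 6.57 and 6.52 log2, and S1PR2, a receptor that confines cells to the germinal centre, had 6.54, 6.41 and 6.37 log2. LMO2, a factor of germinal centre lymphomas, passed at 4 h only, at 6.85, 6.59 and 6.54 log2. Other genes of the GCB list were expressed. BCL6, the repressor that maintains the germinal centre state, had 9.67, 9.19 and 10.04 log2, EZH2, the histone methyltransferase, had 9.40, 10.14 and 9.80 log2 with 3 of 3 probes passing, and GNA13, the G protein downstream of S1PR2, had 8.97, 10.00 and 8.09 log2, lowest at 12 h.

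**Figure D2:**
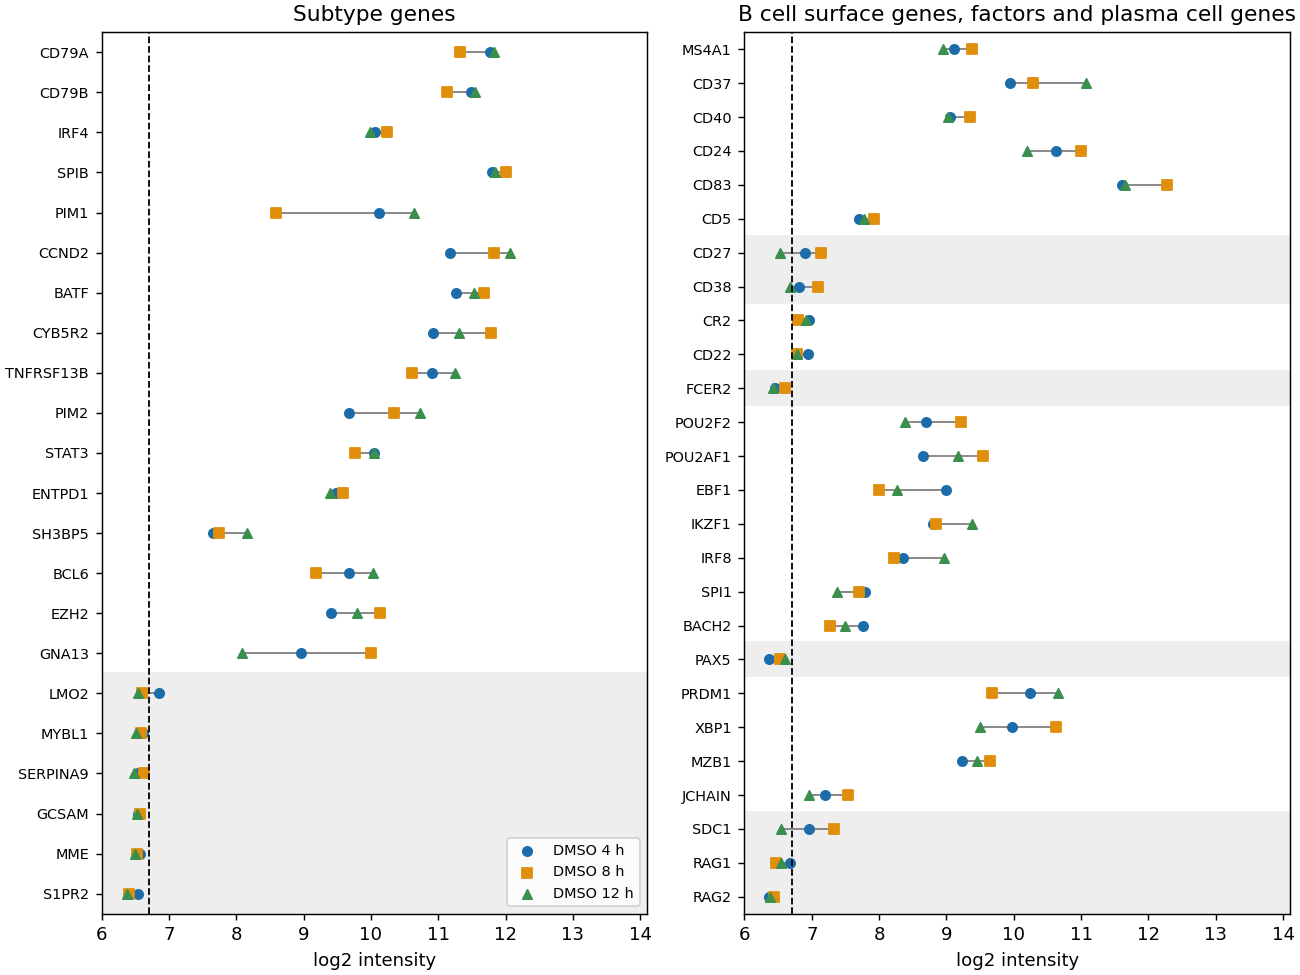
Log2 intensity (horizontal axis) of subtype genes (left) and of B cell surface genes, transcription factors and plasma cell genes (right) in the 3 DMSO arrays, with a grey line over the range, the dashed line at 6.70 and shaded rows for genes not above it in all 3 arrays. The 6 markers lie between 8.59 and 12.07 log2, and MME, SERPINA9, GCSAM, S1PR2 and PAX5 lie below the line in every array.

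Of 36 measured B cell surface genes, 27 were expressed (75%, against 42.3% of all genes), 4 were intermittent and 5 were absent. CD83, a marker of activated B cells, had 11.60, 12.28 and 11.66 log2, and CD37, a tetraspanin of mature B cells, had 9.94, 10.29 and 11.08 log2. MS4A1, which encodes CD20, had 9.12, 9.38 and 8.96 log2, with 2 of 3 probes above background. CD40, the receptor of T cell help, had 9.05, 9.36 and 9.03 log2 in all arrays at a rank of 86.2. CD5, seen on some activated and malignant B cells, had 7.70, 7.93 and 7.77 log2. CD22, an inhibitory receptor, had 6.95, 6.79 and 6.78 log2, and CR2, the complement receptor CD21, had 6.97, 6.80 and 6.92 log2, both close to the threshold in every array. CD27, a memory B cell receptor, had 6.91, 7.14 and 6.53 log2 and CD38, an ectoenzyme of plasma cells and germinal centre cells, had 6.82, 7.10 and 6.67 log2. Both passed in 2 of 3 arrays and missed the call at 12 h. The absent genes were MME, FCER2, SLAMF1, FCRL1 and LY9. FCER2, the low-affinity IgE receptor CD23, stayed at 6.46, 6.61 and 6.42 log2.

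Among 31 measured B cell transcription factors, 26 were expressed (83.9%, against 42.3% of all genes) and 1, PAX5, was absent. PAX5, the factor that maintains B cell identity, is represented by 1 probe, at 6.37, 6.53 and 6.61 log2. Other genes of the same programme, and known PAX5 targets such as CD79A above and BLNK below, were expressed in the same arrays. The PAX5 call rests on that probe alone, and why it stayed below 6.70 was not tested. EBF1, which acts with PAX5, had 9.0, 7.99 and 8.27 log2, lowest at 8 h, and IKZF1, which encodes Ikaros, had 8.80, 8.85 and 9.37 log2. POU2F2, or OCT2, had 8.70, 9.22 and 8.38 log2 and its coactivator POU2AF1, or OBF1, had 8.64, 9.55 and 9.18 log2. IRF8, a factor of germinal centre and myeloid cells, had 8.35, 8.22 and 8.97 log2, SPI1, or PU.1, had 7.79, 7.70 and 7.38 log2, and BACH2, a repressor of plasma cell differentiation, had 7.76, 7.27 and 7.49 log2. BCL11A, a zinc finger factor, had 11.01, 10.45 and 11.14 log2, and TCF4, an E protein amplified in ABC lymphomas, had 10.72, 10.87 and 11.10 log2. They ranked at percentiles 97.1 and 96.7.

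The plasma cell list had 12 of 17 genes expressed (70.6%, against 42.3% of all genes), 5 intermittent and 0 absent. PRDM1, which encodes BLIMP1, the master repressor that ends the B cell programme, had 10.25, 9.68 and 10.65 log2 with 2 of 4 probes passing. XBP1, the factor of the secretory response, had 9.97, 10.63 and 9.49 log2, and MZB1, a chaperone of antibody secretion, had 9.23, 9.65 and 9.46 log2. JCHAIN, the joining chain of secreted antibody, had 7.20, 7.54 and 6.95 log2. Surface genes of plasma cells passed in some arrays only. SDC1, which encodes CD138, had 6.96, 7.33 and 6.54 log2 and TNFRSF17, which encodes BCMA, had 7.18, 6.63 and 6.71 log2, each above 6.70 in 2 of 3 arrays. Only 9 of 22 listed immunoglobulin and recombination genes were measured, and 4 were expressed (44.4%, against 42.3% of all genes). RAG1 and RAG2, the recombinase of lymphocyte precursors, passed in none of the 3 arrays with the probe that stood for the gene, at 6.68, 6.48 and 6.55 log2 for RAG1 and 6.37, 6.43 and 6.38 log2 for RAG2.

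B cell receptor signalling had the largest share expressed among the 7 signalling lists. It had 40 of 47 genes expressed (85.1%, against 42.3% of all genes), 6 intermittent and 1 absent. Of its kinases, LYN, a SRC family kinase, had 11.37, 11.52 and 11.41 log2, SYK had 11.18, 10.52 and 11.26 log2 and BTK had 9.81, 10.50 and 9.67 log2. BLK, a SRC family kinase of B cells, had 9.02, 8.93 and 8.47 log2, and FYN, another, had 6.73, 6.99 and 6.44 log2 with 2 of 3 arrays above 6.70. At 8 h SYK had its lowest and BTK its highest value. The adaptors and second messenger enzymes followed. DAPP1, an adaptor that binds PI3K lipids, had 11.88, 12.21 and 11.89 log2 and BLNK, the scaffold under SYK, had 8.12, 8.17 and 7.84 log2. PLCG2, the phospholipase activated by BTK, had 10.99, 8.86 and 11.68 log2, lowest at 8 h. PRKCB, the kinase C isoform of B cells, had 9.79, 10.38 and 9.92 log2 with 4 of 5 probes passing, and RASGRP3, which links diacylglycerol to RAS, had 10.99, 11.37 and 10.57 log2. Inhibitors of the pathway were also expressed. PTPN6, the phosphatase SHP-1, had 10.36, 10.58 and 10.99 log2, with 1 of 3 probes passing, INPP5D, the lipid phosphatase SHIP1, had 9.09, 9.53 and 9.04 log2 with 1 of 2, and CSK, the kinase that restrains SRC family kinases, had 10.96, 9.88 and 8.49 log2, lowest at 12 h. The absent gene was NFATC2. With the dimmest probe of each gene in place of the brightest, 25 of the 47 genes were expressed.

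The NF-kB list had 29 of 37 genes expressed (78.4%, against 42.3% of all genes), 7 intermittent and 1 absent. Of the subunits, NFKB1, the p105 and p50 subunit, had 11.34, 10.02 and 11.37 log2, REL had 8.19, 7.46 and 8.21 log2, RELA had 7.22, 7.08 and 7.55 log2 and RELB, of the alternative pathway, had 8.75, 8.42 and 7.63 log2. NFKB2, the p100 and p52 subunit, had 8.26, 6.51 and 7.87 log2 and was below 6.70 at 8 h only. Another of its 3 probes passed in all arrays, so its call depends on the probe. Among all 20046 genes, 79 had a chosen probe that failed the call while another probe passed it. The BCL10 and MALT1 genes, whose products form the complex that activates the IKK kinases, were expressed at 7.11, 7.46 and 7.77 log2 and 7.86, 8.26 and 8.02 log2. Regulators that NF-kB itself induces, among them its inhibitors, were expressed too. NFKBIA, which encodes IkB alpha, had 11.43, 11.65 and 11.41 log2, NFKBIZ, a nuclear cofactor of the family, had 11.39, 10.91 and 11.21 log2, NFKBIE, or IkB epsilon, had 10.86, 11.12 and 10.73 log2, and TNFAIP3, the deubiquitinase A20, had 8.58, 7.83 and 8.37 log2. NFKBIA, NFKB1 and NFKBIZ lay at percentiles 98.0, 97.8 and 97.6. CARD10, a scaffold mainly of other tissues, was absent at 6.67, 6.63 and 6.50 log2.

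Because NF-kB induces several of its own genes, the 250 bases before the RefSeq gene start (GRCh38.p14) of these genes were searched for the NF-kB motif GGGANTTTCC on both strands. The sequence table matched 15033 of the 20046 genes. The motif was found before 5 of 26 expressed NF-kB genes with a sequence (19.2%), against 46 of 6898 expressed genes (0.667%), 20 of 4295 absent genes (0.466%) and 80 of all 15033 genes (0.532%). It was found before 0 of 31 expressed B cell receptor genes, 0 of 20 B cell surface genes, 0 of 22 B cell transcription factors, 0 of 22 ABC genes and 0 of 5 chemokines. Outside the NF-kB list it was found before 1 of 7 expressed interleukins (IL6, 14.3%). Over all expressed list members it was found before 11 of 284 (3.87%), among them B2M, IFNGR2, IL27RA, LTB and TICAM1. The 5 NF-kB genes are shown because they hold it, chosen after the search, with the motif in capitals on the gene's own strand.
NFKBIA, chr14:35404776-35404875, minus strand: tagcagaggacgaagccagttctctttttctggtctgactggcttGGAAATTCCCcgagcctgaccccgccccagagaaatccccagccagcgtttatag
NFKB1, chr4:102501265-102501358, plus strand: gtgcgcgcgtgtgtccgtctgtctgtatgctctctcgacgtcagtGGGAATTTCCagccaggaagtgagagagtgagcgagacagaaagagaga
NFKBIZ, chr3:101827740-101827821, plus strand: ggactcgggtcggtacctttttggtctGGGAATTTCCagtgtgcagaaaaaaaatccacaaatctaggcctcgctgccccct
TNFAIP3, chr6:137867147-137867246, plus strand: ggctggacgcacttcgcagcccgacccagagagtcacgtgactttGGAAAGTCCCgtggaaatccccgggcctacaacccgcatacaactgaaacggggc
REL, chr2:60881483-60881573, plus strand: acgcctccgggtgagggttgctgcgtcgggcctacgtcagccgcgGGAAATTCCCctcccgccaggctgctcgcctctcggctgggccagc
The motif began 81, 49, 223, 67 and 46 bases before the start of NFKBIA, NFKB1, NFKBIZ, TNFAIP3 and REL, and it reads as its complement in NFKBIA, TNFAIP3 and REL. A match is a run of letters and no measured binding.

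SPIB and IRF4 are known to bind together at a composite of an ETS and an interferon-response element, and all 6 of their arrays' values were at or above 9.98 log2. The composite GGAANNGAAA was found in the 250 bases before 3 of 31 expressed B cell receptor genes (DAPP1, INPP5D and RASGRP3, 9.68%) and 3 of 20 expressed B cell surface genes (BANK1, CD1C and CD83, 15.0%), against 340 of 15033 genes (2.26%). It was found before 2 of 22 expressed B cell transcription factors (BCL11A and EBF1, 9.09%), 1 of 26 NF-kB genes, 0 of 22 ABC genes, 0 of 7 interleukins and 0 of 5 chemokines. Its share was 2.17% of expressed and 2.24% of absent genes, and 10 of 284 expressed list members held it (3.52%). The windows of DAPP1, RASGRP3 and BANK1 are shown as examples from the B cell receptor and surface lists, chosen after the search, with the composite in capitals.
DAPP1, chr4:99816754-99816826, plus strand: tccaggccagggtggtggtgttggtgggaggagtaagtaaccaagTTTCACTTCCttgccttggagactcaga
RASGRP3, chr2:33436210-33436309, plus strand: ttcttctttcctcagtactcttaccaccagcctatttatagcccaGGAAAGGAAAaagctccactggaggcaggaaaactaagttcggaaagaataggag
BANK1, chr4:101790612-101790711, plus strand: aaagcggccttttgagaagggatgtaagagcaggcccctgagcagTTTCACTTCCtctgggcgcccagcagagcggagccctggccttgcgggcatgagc
BANK1, a scaffold of B cell receptor signalling, had 7.93, 8.68 and 8.24 log2. The octamer ATGCAAAT, bound by OCT2, was found before 1 of 20 expressed B cell surface genes (CD53) and 2 of 31 expressed B cell receptor genes (ITPR3 and PRKCB, 6.45%), against 245 of 15033 (1.63%). It was found before 0 of 22 expressed B cell transcription factors and 1 of 22 ABC genes, and before 1.29% of expressed and 2.03% of absent genes. The ETS motif AGGAAGTG was found before 3 of 20 and 4 of 31 genes of the same lists (15.0% and 12.9%), against 465 of 15033 (3.09%), and before 0 of 22 B cell transcription factors and 1 of 22 ABC genes. This ETS motif also lay before 2 of 5 expressed chemokines (CCL22 and CXCL8) and 19 of 284 expressed list members (6.69%). Its share was 3.28% of expressed and 2.84% of absent genes. All motifs were searched on both strands. The ETS letters overlap the composite in the windows of DAPP1 and BANK1, so these matches are not separate.

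Of 26 Toll-like receptor genes and their adaptors, 14 were expressed (53.8%, against 42.3% of all genes) and 4 were absent. MYD88, the adaptor of nearly all Toll-like receptors, had 9.11, 8.94 and 8.71 log2, and IRAK1, the kinase it recruits, had 10.06, 8.34 and 9.51 log2, lowest at 8 h. Of the receptors themselves, TLR9, the receptor for unmethylated DNA, had 8.42, 8.87 and 8.33 log2 and was the 1 Toll-like receptor expressed by its chosen probe. TLR10, a receptor of B cells, had 8.09, 6.56 and 8.07 log2 and missed the call at 8 h, while another of its 3 probes passed in all arrays. TLR7, a receptor for RNA, had 6.82, 6.62 and 6.81 log2, above 6.70 in 2 arrays, and TLR2, TLR3 and TLR4 were absent. The partners UNC93B1, which carries TLR9 to endosomes, and CD180, a TLR4-like receptor of B cells, had 9.21, 9.92 and 8.84 log2 and 7.24, 7.14 and 7.37 log2.

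In the PI3K and AKT list 20 of 29 genes were expressed (69.0%, against 42.3% of all genes), 6 were intermittent and 3 were absent. PIK3CD, the delta catalytic subunit of leukocytes, had 8.53, 8.68 and 8.60 log2, PIK3CG, the gamma subunit, had 7.17, 8.21 and 7.47 log2, and PIK3CB, the beta subunit, had 7.22, 6.76 and 7.31 log2. AKT1 had 8.48, 9.35 and 9.20 log2, while AKT2, represented by a single probe, stayed at 6.59, 6.54 and 6.67 log2 and was absent. Downstream, MTOR had 8.56, 8.12 and 8.77 log2 and FOXO1, a factor that AKT restrains, had 8.33, 9.18 and 8.73 log2. PIK3R1, the regulatory subunit p85 alpha, had 7.46, 7.95 and 7.76 log2 from 1 of 5 probes that passed.

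The RAS and MAPK list, the pathway that the study's compound acts on, had 20 of 39 genes expressed (51.3%, against 42.3% of all genes). Of the rest, 10 were intermittent and 9 absent. MAP2K1 and MAP2K2, which encode MEK1 and MEK2, had 8.67, 8.36 and 9.12 log2 and 8.36, 7.25 and 8.02 log2, and MAPK3, which encodes ERK1, had 8.36, 8.08 and 8.08 log2. HRAS had 9.07, 9.54 and 8.99 log2 with 1 of 2 probes passing, and ARAF had 8.20, 8.03 and 8.66 log2. So each tier of the cascade had an expressed member in all 3 arrays. Of the feedback inhibitors, DUSP6, an ERK phosphatase, had 6.76, 6.82 and 6.94 log2 with 1 of 2 probes passing, SPRY2 had 6.45, 6.75 and 6.48 log2 and SPRY4 was absent at 6.47, 6.56 and 6.69 log2. Another, DUSP5, a nuclear ERK phosphatase, had 9.27, 9.65 and 9.92 log2. The growth factor receptors KIT, FLT3 and FGFR1 were absent, and EGFR, ERBB2 and PDGFRA were intermittent.

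Of 26 JAK and STAT genes, 19 were expressed (73.1%, against 42.3% of all genes). JAK1 had 9.15, 9.99 and 9.74 log2 and TYK2 had 9.59, 9.19 and 10.04 log2, while JAK2 and JAK3 stayed below 6.70 in every array, at 6.34, 6.39 and 6.41 log2 and 6.48, 6.67 and 6.55 log2. JAK2 and JAK3 are each represented by a single probe, so a probe that misses its transcript cannot be told from low RNA. JAK1 and TYK2 are the kinases of the IL10 receptor. Of the STATs, STAT3 and STAT6 ranked at percentiles 93.5 and 90.4, STAT5A was expressed at 8.81, 8.16 and 8.28 log2, and STAT4 passed at 4 h only. The feedback genes SOCS1 and SOCS3 had 7.98, 6.93 and 7.57 log2 and 6.79, 7.52 and 7.02 log2.

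Among 22 cyclin, CDK and MYC genes 15 were expressed (68.2%, against 42.3% of all genes) and 6 were absent. CCND3 accompanied CCND2, at 9.73, 8.50 and 9.52 log2, and CCND1, the cyclin of mantle cell lymphoma, was absent at 6.63, 6.45 and 6.57 log2. CDK4 had 11.43, 10.75 and 11.51 log2 and CDK6 had 10.31, 10.41 and 10.23 log2. Of the inhibitors of these kinases, CDKN2A and CDKN2B were absent, at 6.63, 6.56 and 6.70 log2 and 6.57, 6.48 and 6.55 log2, whereas CDKN1A, or p21, had 9.74, 10.55 and 10.19 log2 with 1 of 2 probes passing and CDKN1B, or p27, had 8.30, 8.88 and 8.87 log2. MYC had 10.49, 10.99 and 10.82 log2 with both probes above background, and MYCN was absent.

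**Figure D3:**
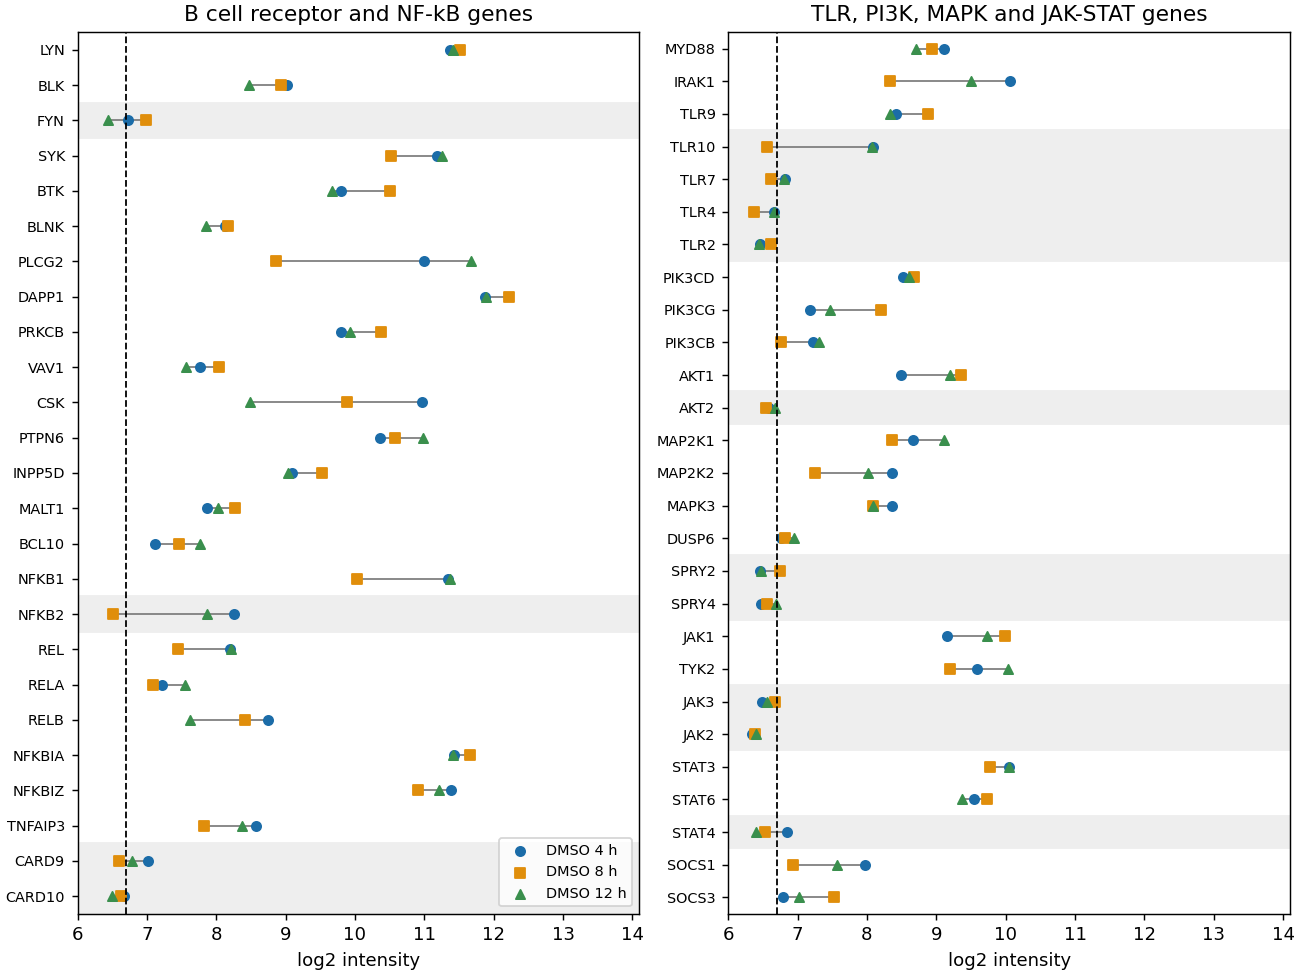
Log2 intensity (horizontal axis) of B cell receptor and NF-kB genes (left) and of Toll-like receptor, PI3K, MAPK and JAK-STAT genes (right) in the 3 DMSO arrays, with a grey line over the range, the dashed line at 6.70 and shaded rows for genes not above it in all 3 arrays. PLCG2 at 8.86, NFKB2 at 6.51 and TLR10 at 6.56 log2 in the 8 h array lie far from their other points, and JAK2, JAK3 and AKT2 lie below the line throughout.

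The BCL2 family sets the threshold of mitochondrial apoptosis. It had 16 of 21 genes expressed (76.2%, against 42.3% of all genes), 4 intermittent and 1 absent. Of its protective members described here, 5 of 6 were expressed. BCL2 had 10.01, 10.39 and 10.35 log2 with 3 of 4 probes passing, BCL2L1, or BCL-XL, had 10.12, 9.87 and 9.21 log2, and MCL1 had 9.24, 9.60 and 9.46 log2. BCL2A1, an NF-kB target, had 8.05, 7.16 and 7.14 log2, higher at 4 h than at either later time, and BCL2L2, or BCL-W, had 6.99, 7.10 and 7.43 log2. BCL2L10 was absent. Of the pore formers, BAX had 10.12, 11.03 and 10.70 log2 and BAK1 had 7.44, 7.13 and 7.15 log2, and BOK missed the call by its 4 h value, at 6.70, 6.99 and 6.82 log2. The BH3-only genes, whose products trigger the pore, were expressed alongside. BCL2L11, or BIM, had 8.85, 8.30 and 8.76 log2 with 3 of 3 probes, BID had 9.30, 8.77 and 9.54 log2, and PMAIP1, or NOXA, had 9.24, 8.29 and 9.44 log2. BIK had 8.28, 8.63 and 9.23 log2, BMF had 9.10, 9.33 and 9.09 log2 and BAD had 7.15, 7.24 and 7.23 log2. BBC3, or PUMA, had 7.32, 7.81 and 6.71 log2 and was the member nearest above the threshold, and HRK passed at 8 h only.

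The death receptor list had 11 of 18 genes expressed (61.1%, against 42.3% of all genes) and 4 absent. FAS had 6.47, 6.57 and 7.01 log2, above 6.70 at 12 h only, and its ligand FASLG was absent at 6.25, 6.48 and 6.63 log2. The TRAIL receptors TNFRSF10A and TNFRSF10B were expressed, at 7.31, 7.75 and 6.94 log2 and 8.70, 8.49 and 8.45 log2, and TNFRSF1A, the TNF receptor that carries a death domain, was absent at 6.47, 6.48 and 6.60 log2. Behind the receptors, the adaptor FADD had 9.23, 9.44 and 8.51 log2 and CASP8 had 7.04, 7.41 and 7.30 log2. CFLAR, or FLIP, which blocks CASP8 at the receptor and is an NF-kB target, had 11.10, 9.18 and 11.20 log2 and was lower at 8 h than at either other time. RIPK3 and MLKL, which carry out necroptosis, had 7.18, 8.06 and 6.87 log2 and 8.83, 8.80 and 8.09 log2.

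Of 23 caspase, apoptosome and inhibitor-of-apoptosis genes, 16 were expressed (69.6%, against 42.3% of all genes). The apoptosome genes APAF1, CYCS and CASP9 had 7.70, 8.17 and 8.37 log2, 7.48, 7.91 and 7.67 log2 and 7.34, 7.44 and 7.38 log2. DIABLO, the mitochondrial antagonist of the inhibitors, had 9.88, 9.35 and 9.31 log2. Of the inhibitors, BIRC2, or cIAP1, had 9.36, 9.91 and 8.80 log2, BIRC5, or survivin, had 8.25, 7.58 and 8.19 log2, and XIAP had 6.86, 6.85 and 6.60 log2, below 6.70 at 12 h only. CASP1 and CASP4, inflammatory caspases, were expressed, at 8.56, 8.53 and 8.68 log2 and 8.83, 8.94 and 8.64 log2, and CASP5 and CASP14 were absent.

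**Figure D4:**
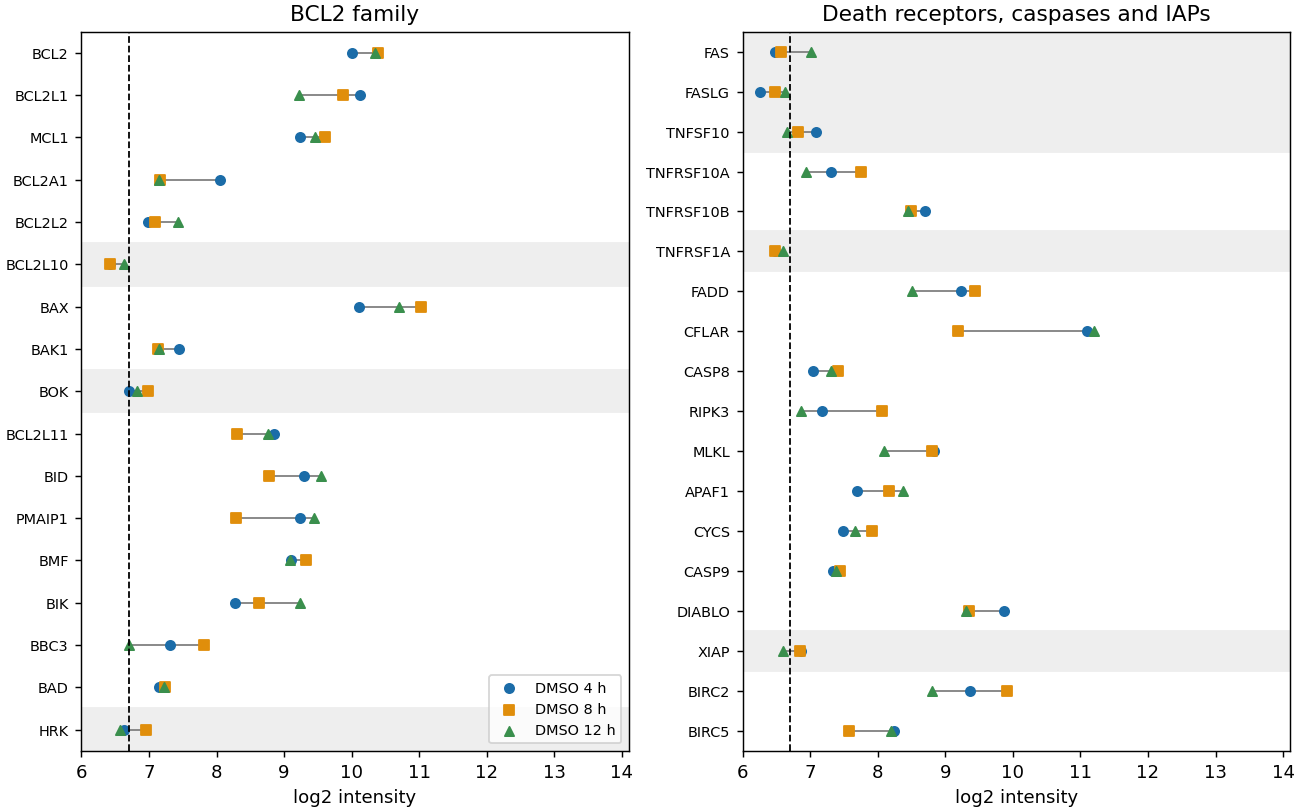
Log2 intensity (horizontal axis) of BCL2 family genes (left) and of death receptor, caspase and inhibitor-of-apoptosis genes (right) in the 3 DMSO arrays, with a grey line over the range, the dashed line at 6.70 and shaded rows for genes not above it in all 3 arrays. BCL2, BAX and BCL2L11 lie right of the line, FASLG and TNFRSF1A lie left of it in every array, and CFLAR spans 9.18 to 11.20 log2.

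Of 51 measured interleukins, interferons and growth factors 10 were expressed (19.6%, against 42.3% of all genes), 16 were intermittent and 25 were absent (49.0%, against 31.3% of all genes). The 10 included genes at the top of the arrays' range. IL18, an inflammasome cytokine, had 12.55, 11.09 and 12.75 log2 (percentile 99.3), lowest at 8 h. MIF, a cytokine made by many cells, had 12.13, 12.64 and 12.33 log2. IL10, the autocrine cytokine of ABC lymphoma that signals to STAT3, had 11.74, 10.37 and 11.95 log2 (percentile 98.5), from 1 of 2 probes, with the 8 h value again the lowest. IL6 had 7.59, 6.75 and 7.00 log2 at a rank of 58.6. EBI3, a subunit shared by IL27 and IL35, had 10.46, 10.15 and 10.05 log2, and IL12A, the partner that makes IL35 with it, had 8.78, 8.61 and 9.12 log2. IL27, the other partner of EBI3, was absent. The absent genes also held the T cell cytokines IL2, IL21, IFNG and IL13, the interferons IFNA1, IFNA2 and IFNB1, and TGFB1, whose 3 values were 6.48, 6.67 and 6.53 log2.

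Of 17 ligands of the TNF family, 9 were expressed (52.9%, against 42.3% of all genes). TNFSF14, or LIGHT, had 9.74, 10.07 and 9.37 log2, CD70, the ligand of CD27, had 9.49, 9.60 and 9.49 log2, and LTA, or lymphotoxin alpha, had 9.19, 9.48 and 8.74 log2. TNF had 9.20, 8.09 and 8.87 log2, lowest at 8 h, LTB had 7.60, 7.79 and 6.93 log2, and TNFSF13B, the B cell survival factor BAFF, had 7.42, 7.80 and 7.51 log2. TNFSF13, or APRIL, passed at 8 h only. Of 23 receptors of the family, 6 were expressed (26.1%, against 42.3% of all genes) and 9 were absent. TNFRSF13C, the BAFF receptor, had 7.56, 7.70 and 7.26 log2, and TNFRSF1B, the second TNF receptor, had 9.67, 10.36 and 9.86 log2. TNFRSF8, which encodes CD30, was absent at 6.42, 6.32 and 6.26 log2.

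Among 43 chemokines 10 were expressed (23.3%, against 42.3% of all genes), 16 were intermittent and 17 were absent. CXCL10, an interferon-induced chemokine, had 11.46, 11.93 and 12.10 log2 (percentile 98.7), and CXCL9, of the same group, had 8.05, 7.61 and 8.55 log2. CCL22 and CCL17, ligands of CCR4, had 10.04, 9.01 and 9.52 log2 and 8.24, 8.24 and 7.95 log2. CCL3 had 9.0, 8.96 and 9.71 log2 and CCL5 had 7.88, 7.73 and 7.25 log2. CCL3 and CCL3L1 are near-identical copies, as are CCL4 and CCL4L1, so probes may share signal. CCL4 was absent while CCL4L1 had 8.62, 7.46 and 8.67 log2, and these calls are uncertain. CXCL13, the chemokine that draws B cells into follicles, was below 6.70 at 8 h only, at 7.25, 6.62 and 7.30 log2, and CXCL12 was absent.

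The interferon-response motif GAAANNGAAA was searched in the same 250 bases. It was found before 2 of 5 expressed chemokines with a sequence, CXCL9 and CXCL10, against 404 of 15033 genes (2.69%). Its share was 2.73% of expressed and 2.70% of absent genes. Of expressed list members 18 of 284 held it (6.34%), among them 2 of 26 NF-kB genes. The window of CXCL10 is shown because it is the expressed chemokine of highest rank, with the motif in capitals, 221 bases before the gene start.
CXCL10, chr4:76023664-76023747, minus strand: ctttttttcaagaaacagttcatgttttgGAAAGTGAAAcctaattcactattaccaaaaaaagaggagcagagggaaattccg
IFNA1, IFNA2, IFNB1 and IFNG were each below 6.70 in all 3 arrays, and IFNAR1, IFNAR2, IFNGR1 and IFNGR2 were expressed, at 7.47, 8.11 and 7.96 log2 for IFNAR1 and 7.73, 7.82 and 7.97 log2 for IFNGR1.

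Of 24 chemokine and other homing receptors, 9 were expressed (37.5%, against 42.3% of all genes). CCR6, a receptor of memory and activated B cells, had 12.95, 13.45 and 13.59 log2 (percentile 99.9), the highest rank among the list members of these receptors. This value rests on 1 of 3 probes, and another probe of CCR6 passed in no array. CCR7, which guides B cells towards T cell zones, had 11.79, 11.71 and 12.07 log2, CXCR5, which guides them to follicles, had 10.97, 9.71 and 11.33 log2 with 3 of 3 probes, and CXCR4, the receptor of CXCL12, had 9.97, 11.29 and 11.43 log2 with 2 of 3. GPR183, or EBI2, which positions activated B cells, had 9.39, 10.31 and 8.32 log2, highest at 8 h and lowest at 12 h. CXCR3, the receptor of CXCL9 and CXCL10, passed at 4 h only, and CCR4 was absent at 6.53, 6.49 and 6.46 log2.

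Of 47 cytokine receptors 17 were expressed (36.2%, against 42.3% of all genes), 21 were intermittent and 9 were absent. In at least 2 of 3 arrays 28 of them passed. Both chains of the IL10 receptor were expressed, IL10RA at 8.16, 8.53 and 7.96 log2 and IL10RB at 9.24, 8.89 and 8.87 log2. IL21R had 8.72, 8.80 and 9.23 log2 from 1 of 4 probes and IL4R had 8.75, 8.85 and 8.59 log2. IL2RB had 8.78, 7.80 and 8.92 log2 and IL2RA had 7.12, 6.75 and 7.16 log2, while IL2RG, the common gamma chain of the IL2 and IL21 receptors, had 7.01, 6.70 and 6.41 log2, above 6.70 in 2 of 3 arrays. IL6ST, or gp130, had 8.10, 7.08 and 8.57 log2 and IL6R missed the call, at 7.15, 6.70 and 6.69 log2. CSF2RA, the alpha chain of the GM-CSF receptor, had 11.03, 11.29 and 11.19 log2 with 2 of 4 probes, and its signalling partner CSF2RB was absent at 6.63, 6.55 and 6.55 log2.

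Setting 50 known ligand and receptor pairs side by side, a list drawn up after the values were seen, both genes were expressed in 11 pairs, the ligand with an intermittent receptor in 14 and the ligand with an absent receptor in 6. The 11 pairs were IL10 with IL10RA and IL10RB, IL6 with IL6ST, EBI3 with IL27RA, IL25 with IL17RB, TNFSF13B with TNFRSF13C and TNFRSF13B, TNFSF14 with TNFRSF14, TNF and LTA with TNFRSF1B, and MIF with CD74. In other pairs of the list IL6R, set beside IL6, was intermittent and IL27, set beside IL27RA, was absent. Of the IL25 probes only the brightest passed, and the others passed in no array. In 9 pairs the receptor was expressed and the ligand absent, among them CXCL12 and CXCR4, CCL20 and CCR6, and IL21 and IL21R. The 6 pairs with an absent receptor were CCL17 and CCL22 with CCR4, IL18 with IL18RAP, TNF and LTA with TNFRSF1A, and TNFSF15 with TNFRSF25. RNA levels do not show protein or secretion.

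**Figure D5:**
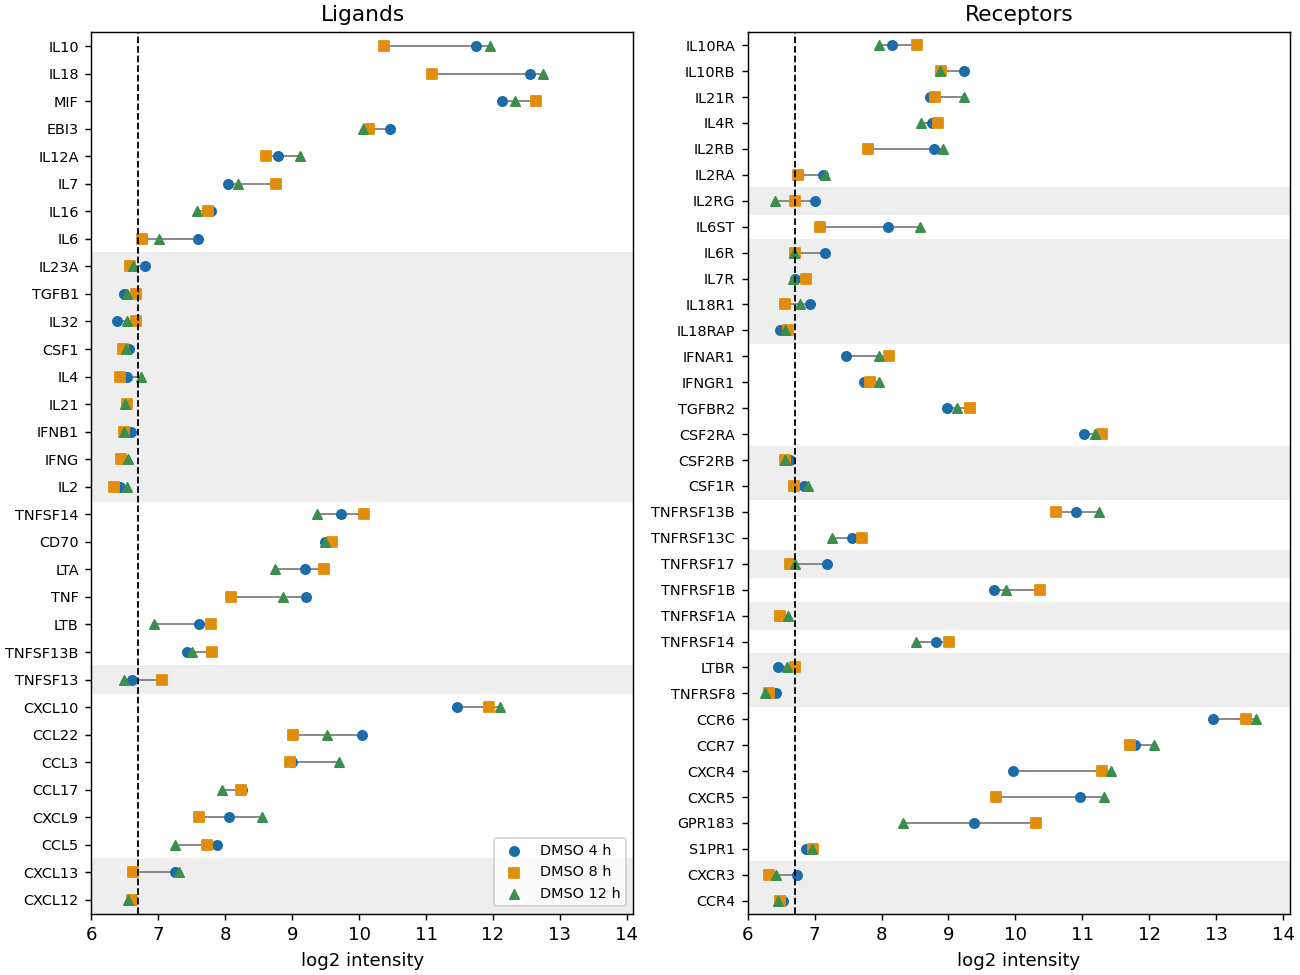
Log2 intensity (horizontal axis) of cytokine, TNF family and chemokine ligand genes (left) and of receptor genes (right) in the 3 DMSO arrays, with a grey line over the range, the dashed line at 6.70 and shaded rows for genes not above it in all 3 arrays. IL18 reaches 12.75 and CCR6 13.59 log2 at 12 h, while CXCL12, IFNG, IL2, IL21, CCR4 and CSF2RB stay below the line.

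Of 25 antigen presentation genes 16 were expressed (64%, against 42.3% of all genes) and 3 were absent. CD74, the invariant chain of class II, had 12.98, 13.27 and 12.76 log2 with 3 of 3 probes (percentile 99.6), and HLA-DPA1 had 11.83, 11.50 and 12.26 log2. CIITA, the activator of class II genes, had 8.80, 8.35 and 8.62 log2. B2M, the light chain of class I, had 12.71, 13.21 and 11.61 log2. HLA-DRB1 and HLA-DQB1 were called absent and HLA-DRA had 7.32, 6.95 and 7.26 log2 with 1 of 2 probes passing. HLA genes are polymorphic and resemble each other, so a single probe may miss an allele or read another gene, and these calls are uncertain. TAP1, the peptide transporter of class I, was absent at 6.45, 6.42 and 6.50 log2, and TAPBP had 9.40, 9.33 and 9.14 log2.

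Of 19 costimulatory and checkpoint genes 9 were expressed (47.4%, against 42.3% of all genes). CD86 had 8.80, 7.71 and 8.84 log2 with 3 of 3 probes and CD80 had 8.01, 6.73 and 7.58 log2. LAG3, a checkpoint receptor of T cells, had 10.06, 9.13 and 10.24 log2. CD274, or PD-L1, and PDCD1LG2, or PD-L2, were absent, at 6.44, 6.44 and 6.42 log2 and 6.41, 6.44 and 6.58 log2.

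For markers of other cells, expressed members were 3 of 15 T cell genes (CD2, CD247 and CD28), 1 of 11 NK cell genes (GZMB), 3 of 14 myeloid genes (CD68, FCGR3A and CD14), 0 of 11 erythroid and platelet genes, 3 of 12 epithelial genes (KRT19, KRT8 and CLDN4), 1 of 12 fibroblast genes (ACTA2) and 0 of 9 endothelial genes. Together 11 of 84 were expressed (13.1%, against 42.3% of all genes), 34 were intermittent and 39 were absent (46.4%, against 31.3% of all genes). Among these markers, CD3E, CD3G, CD4, CD8A, GNLY, KLRD1, S100A8, CDH1, COL1A1, LUM, PECAM1, VWF and CDH5 passed in no array. Other markers as widely used for these cells did pass. CD2, CD14, KRT8 and KRT19 were expressed, and CSF1R passed in 2 of 3 arrays. CD3D, LYZ, EPCAM and DCN each had a probe that passed in 1 or 2 arrays. GZMB, a cytotoxic protease, had 8.63, 8.38 and 8.73 log2, CD2, an adhesion receptor of T and NK cells, had 7.82, 6.83 and 7.98 log2, and ACTA2, smooth muscle actin, had 7.49, 7.93 and 7.97 log2. Where this RNA came from was not tested. Some of these small counts rest on single arrays: without the 4 h array 2 NK cell genes were expressed, without the 8 h array 5 myeloid and 2 erythroid and platelet genes, and without the 12 h array 3 fibroblast genes and 1 erythroid and platelet gene.

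Over the 3 arrays, expressed genes had a median range of 0.55 log2 units, and 1357 of 8474 (16.0%) differed by at least 1 unit. Among expressed list members 68 of 356 (19.1%, against 16.0% of all expressed genes) did, and the array farthest from the other pair was the 8 h array in 40 of them, the 4 h array in 10 and the 12 h array in 18. With 1 array per time these differences have no test. The count rests on single arrays: with genes called anew without the 8 h array 259 differed by at least 1 unit, and without the 12 h array 625, where a range over fewer arrays is smaller by construction. Those named for the widest range were FCRLA, a B cell Fc receptor-like gene, at 10.28, 9.0 and 6.78 log2, TGFBR3, the TGF-beta coreceptor, at 9.96, 9.67 and 6.93 log2, and PLCG2 and CSK with the values given above. FCRLA and TGFBR3 stood lowest at 12 h, and PLCG2 at 8 h. Between 4 and 8 h, 94 expressed genes were higher at 8 h by at least 1 log2 unit and 573 were lower. Between 8 and 12 h, 665 were higher at 12 h and 427 were lower, and between 4 and 12 h, 40 were higher at 12 h and 222 were lower.

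The calls nearest the threshold depend on hundredths of a log2 unit. Just above it, by the lowest array, were BBC3 at 6.707, ICAM1 at 6.711, TRADD at 6.721 and STAP1 at 6.724 log2. Just below were BOK at 6.698, CSF1R at 6.694, IL6R at 6.693 and MTA3 at 6.689 log2. MTA3, a corepressor of germinal centre cells, had 8.09, 7.72 and 6.69 log2 and missed the call at 12 h only. Of 178 expressed list members with several probes, 55 (30.9%) had a probe that passed in no array, against 1103 of 3459 expressed genes (31.9%). Probe counts are printed above for some genes only. TNFRSF10B, TNFSF14, MALT1, BIRC5, APAF1 and CASP9 also had several probes, of which a single probe passed in all arrays. The absent calls of AKT2, JAK2, JAK3, TAP1, TNFRSF1A, TGFB1 and CSF2RB each rest on a single probe. Whether those probes read their transcripts was not tested.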

How the data were processed

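RNA of OCI-LY10 cells was hybridised to Illumina HT-12 arrays, and only the 3 arrays titled DMSO (4, 8 and 12 h, 1 array each) were used of 6. The labels' protocols name a column kit for RNA, an integrity check and a kit for biotinylated cRNA. The authors' deposited values are log2 intensities of 47231 probes, from 6.20 to 13.91. Their sorted values differ by at most 9e-04 between arrays, so they had been quantile-normalized. The base of the log is inferred from this range, with software and background correction not given in the sources used here. Quantile normalization removes any difference between arrays in total signal. A table of intensities before normalization, with 6 value columns whose names match no label, was not used, so no detection p-values were at hand.

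Probes were named through the platform annotation: 30113 had 1 gene, 8 several and 17110 none, 30074 matched RefSeq identifiers, and 0 symbols changed. Of the genes, 6691 had several probes. The background threshold was the mode of all values (bins of 0.02 log2) plus 3 SDs of the values below it (SD 0.07). The scripts used Python 3.11.15, pandas 2.3.3, numpy 2.4.6 and matplotlib 3.10.9, and the calls were tested on simulated data. The simulated background was normal noise around the mode, so that test does not measure how often background passes in these arrays. No statistical test was made, because the cells are 1 line in 1 condition and each time has 1 array. For arrays, their number limits the precision.

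The members, 34 gene lists and thresholds were chosen with earlier results of these data known. The rule for named genes took the 6 markers, key genes of each list, up to 4 further expressed members of highest median per list, the expressed member of widest range per list where it is at least 1 log2 unit, the 20 genes of highest median, and the 4 list members nearest each side of the threshold. It names 359 genes, of which not all are printed. Genes named outside it were chosen after their values were seen: members of small counts, genes holding a motif, genes of the ligand and receptor pairs, and ARAF, CD180, CCR4, CSF2RB, MTOR, STAT5A and TAPBP. Alternatives were other thresholds, calls in 2 of 3 arrays, the mean or the dimmest probe of a gene, percentiles among expressed genes, and each array left out.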

Additional observations from a re-analysis of the deposited data

How the results depend on the processing

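All 6 markers were expressed under every threshold, probe choice and array subset tried. Of 634 list members, a threshold of 2 SDs lost 0 calls and gained 19, 6 SDs lost 41 and gained 0, at least 2 of 3 arrays gained 72, the mean of all probes lost 17 and gained 3, and the dimmest probe lost 113. Leaving out the 4, 8 or 12 h array lost 2, 0 and 1 calls and gained 13, 38 and 25. The total of 8474 expressed genes was 9230 at 2 SDs, 7250 at 6 SDs, 10658 in at least 2 arrays, 8190 by the mean probe and 6398 by the dimmest. With 2 SDs the T cell list had 5 expressed genes, the erythroid and platelet list 1, the endothelial list 1 and the olfactory list 8. With 6 SDs the T cell list had 1 and the olfactory list 2. In at least 2 of 3 arrays, cytokine receptors had 28, TNF receptors 10, NK cells 3, myeloid cells 6, erythroid cells and platelets 3, epithelial cells 5, fibroblasts 3 and olfactory receptors 20. By the dimmest probe, the immunoglobulin list had 2, GCB 5, ABC 19, B cell receptor 25, PI3K 11, caspases 8, interleukins 6, TNF ligands 4, cytokine receptors 11, chemokine receptors 5 and myeloid cells 0. The cause was not tested beyond the construction of each alternative, since a gene's dimmest probe cannot exceed its brightest. Among named genes, 207 lay above the 75th percentile of all genes and 121 above that of expressed genes. Over the arrays left out, expressed counts ran from 1 to 2 for NK cells, 3 to 5 for myeloid cells, 0 to 2 for erythroid cells and platelets, 1 to 3 for fibroblasts and 8 to 10 for olfactory receptors, and genes with a range of at least 1 log2 unit from 259 to 1049. No paired analysis was possible because no groups were compared. Genes within a few hundredths of a log2 unit of 6.70 cannot be placed, and 3 arrays of 3 times do not separate time from technique.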

Other observations

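Of the 100 genes of highest median, 67 had several probes, and 8 of them (11.9%) had a probe that passed 6.70 in no array, against 1103 of 3459 expressed genes (31.9%). Such genes were thus a smaller share at the top of the distribution, and some are given here as values. GJC1, a gap junction connexin known from heart and vessel wall, had 13.09, 13.38 and 13.40 log2 at 4, 8 and 12 h, while its other probe stayed between 6.54 and 6.59 log2. KCNH6, a potassium channel gene known from excitable cells, had 12.63, 13.18 and 12.92 log2, with 1 of 3 probes passing in all arrays and the other pair silent. ITIH5, a hyaluronan-binding matrix protein, had 13.38, 13.50 and 11.22 log2, with 1 of 5 probes passing in all arrays. TCAF1, a regulator of ion channels, had 13.41, 13.43 and 12.78 log2, with 1 of 2 probes passing. CCR6 belongs to the same group, as given above, so its rank and those of GJC1, KCNH6, ITIH5 and TCAF1 each rest on the 1 probe that passed in all arrays. Whether these bright probes read their named transcript was not tested. Such genes are the ones to check by another method before their level is used.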
